A study of Homo sapiens with 6 samples.

Results

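The integrin subunit genes described here are the 10 genes ITGA2, ITGA3, ITGA5, ITGA6, ITGAV, ITGB1, ITGB3, ITGB4, ITGB5 and ITGB6, chosen by name from the 78932 genes of the count table. They are 5 alpha and 5 beta subunits. The measurements come from the human bladder carcinoma line T24 after transfection with a non-targeting siRNA (siNC, 3 libraries) or with siRNA against TRIM28 (siTRIM28, 3 libraries). TRIM28 encodes a transcriptional corepressor that also acts as a SUMO E3 ligase. All 6 libraries are poly(A)-selected and stranded, carry the label of 1 batch, and are labelled as biological replicates, with neither the time after transfection nor the TRIM28 siRNA used named in the sources. The cells are a single line without an animal or donor behind each replicate, so p-values measure the spread between these libraries. The sample labels do not say whether each library comes from its own transfection.

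Integrins are receptors that hold cells to their matrix. An alpha and a beta chain pair in the endoplasmic reticulum, reach the surface as a heterodimer, bind matrix outside the cell and connect to actin or keratin through adaptor proteins on the beta tail. ITGB1 is the common partner of many alpha chains, including the collagen receptor chain ITGA2, the laminin receptor chains ITGA3 and ITGA6 and the fibronectin receptor chain ITGA5. ITGAV pairs with ITGB1, ITGB3, ITGB5, ITGB6 or ITGB8 and binds ligands such as vitronectin, fibronectin and latent TGF-beta, while ITGB4 pairs with ITGA6 in hemidesmosomes, the anchors of epithelial cells to the basement membrane. Urothelial cells carry ITGA6 and ITGB4 at their base, and bladder carcinomas often lose this placement.

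Counts per library sum to between 11712623 and 14018052. TRIM28 itself has 1419, 1393 and 1382 counts in siNC and 130, 96 and 109 in siTRIM28, which leaves 8.55% of its siNC level. The replicates are not equally far apart. Over genes with a mean of at least 5 counts, the chi-square per degree of freedom, which is 1 for sampling noise alone, is 1.08 between siNC replicates 1 and 2 and 1.22 between siTRIM28 replicates 2 and 3, against 4.17 to 6.25 for the other pairs of replicates within a group. siNC replicate 3 and siTRIM28 replicate 1 therefore stand apart. The libraries of each close pair differ by little more than sampling noise. Tests that treat all libraries as independent may therefore give p-values that are too small. The test described below calls 6 integrin genes with all libraries and 6 with each close pair summed to 1 library. It also calls 6 without siNC replicate 3 or siTRIM28 replicate 1. Those 2 runs leave a close pair alone in its group, so they cannot show whether the p-values are too small. Without siTRIM28 replicate 2 it calls 6, and without siNC replicate 1, siNC replicate 2 or siTRIM28 replicate 3 it calls 5. The keratins KRT8 and KRT18 are high in this line, whereas the epithelial markers CDH1 and EPCAM and the urothelial markers UPK1B and UPK3A are at or near 0. Of 13 epithelial and urothelial markers, 5 pass the count minimum and 4 of these pass the test described below, all higher in siTRIM28 (21.3% of all genes are). UPK1A has a mean of 0.874 CPM in siNC and 3.41 CPM in siTRIM28 (log2 fold change 1.94, adjusted p = 0.000548), and KRT7 one of 2.84 and 4.20 CPM (0.56, adjusted p = 0.0126). KRT8 (0.14, adjusted p = 0.0354) and TP63 (1.01, adjusted p = 0.04998) are closer to the threshold. TP63 reaches the count minimum only through siTRIM28 (11, 15 and 10 counts, against 9, 4 and 6 in siNC). UPK1A also needs siTRIM28 to reach the minimum (58, 38 and 34 counts, against 17, 15 and 4 in siNC). GATA3 lies the other way (10, 10 and 4 counts in siNC, 1, 4 and 4 in siTRIM28) and stays under the minimum. The shared direction thus follows in part from the filter. With at least 10 counts required in every library, 3 markers are tested and 2 are higher. Over the alternative settings, which test differing numbers of markers, 1 to 4 are called higher. The part of these markers in the integrin changes was not tested. Of 10 markers of leukocytes, endothelium, fibroblasts and muscle cells, 0 pass the count minimum, and their summed level is 0.795 to 1.57 CPM in siNC and 1.21 to 1.77 CPM in siTRIM28.

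Per length, ITGB1 is by far the most abundant of the 10 transcripts. Levels between genes are compared as RPKM, the count scaled to library size and divided by the gene length in the file. ITGB1 has a mean of 129.9 RPKM ± 1.35 (SD, n = 3) in siNC, which places it at the 98.1th percentile of the 18474 genes tested and gives it 88.1% of the summed RPKM of the 5 beta subunits. ITGA3 is the leading alpha subunit with 49.4 RPKM ± 0.304, 61.7% of the summed alpha RPKM, and ITGA6 follows with 19.3 RPKM ± 0.749, or 24.1%. The chains of the laminin receptors therefore hold most of the alpha transcript in this line.

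The other subunits lie lower, in the order ITGB5 (15.8 RPKM ± 0.311), ITGA5 (7.4 RPKM ± 0.388), ITGAV (2.8 RPKM ± 0.130), ITGB3 (1.78 RPKM ± 0.170) and ITGA2 (1.22 RPKM ± 0.192). No neighbours in this siNC order have overlapping library values. In siTRIM28 the 8 keep their order of means, but the values of ITGB5 (9.21 to 9.9 RPKM) and ITGA5 (8.86 to 9.37 RPKM) overlap, as do those of ITGB3 (2.14 to 2.52 RPKM) and ITGA2 (2.12 to 2.37 RPKM). The gene lengths in the file join all exons and are long for ITGB1 (17512 bases) and ITGAV (19336 bases). With the length of the longest coding transcript in GENCODE v29 instead, a choice made after the data were seen, the siNC order is the same and ITGB5 and ITGA5 trade places in siTRIM28. The shares of the summed RPKM given above change with the length used. Per kilobase of that transcript, the siNC means are 601.4 CPM for ITGB1, 23.55 CPM for ITGB5 and 3.05 CPM for ITGB3.

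**Figure D1:**
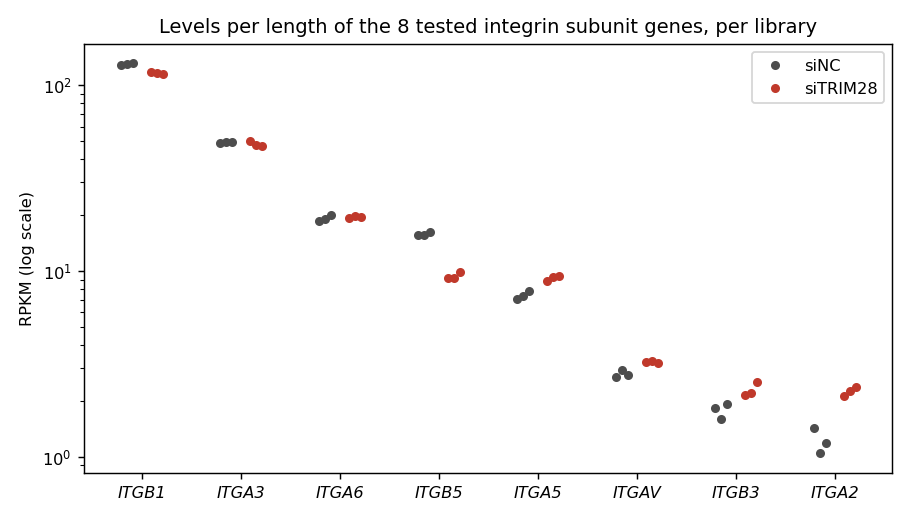
RPKM on a log scale for the 8 integrin subunit genes above the count minimum, with each point 1 library of siNC (grey) or siTRIM28 (red). ITGB1 lies near 130 RPKM and ITGA2 near 1 to 2 RPKM, and the siTRIM28 points of ITGB5 and ITGA5 lie at the same height.

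ITGB4 and ITGB6 are at the floor of these libraries. ITGB4 (ENSG00000132470, chr17:75721328-75757818 of GRCh38, plus strand) has 1 count in each siNC library and 2, 0 and 1 counts in siTRIM28. ITGB6 (ENSG00000115221, chr2:160099667-160271888, minus strand) has 0, 1 and 0 counts in siNC and 2, 3 and 0 in siTRIM28. Both stay at or under 3 counts per library, which equal 0.214 to 0.253 CPM here, so neither is tested and no fold change is given. A difference between the groups is not detectable at this depth. The ITGA6 to ITGB4 and ITGAV to ITGB6 heterodimers thus have a beta chain with almost no poly(A) transcript in T24 under either siRNA.

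Of the 8 subunits with at least 10 counts in at least 3 libraries, 6 pass the test of siTRIM28 against siNC (edgeR quasi-likelihood test, Benjamini-Hochberg adjusted p under 0.05), where 41.8% of all genes tested pass. ITGA2, ITGB3, ITGA5 and ITGAV are higher (4 of 8, against 21.3% of all genes), and ITGB5 and ITGB1 are lower (2 of 8, against 20.5%). The median absolute log2 fold change of the 8 is 0.26, next to 0.27 over all genes tested, so the changes of the 8 are close in size to those of the whole table. The median log2 fold change is 0.12 for the 8 and 0.02 for all genes. For the same 6 genes the libraries of the groups do not overlap, which is so for 52.0% of all genes. An exact two-sided permutation test of log2 CPM gives each of the 6 a p of 0.1, the smallest that 3 against 3 libraries allow. In these bulk samples, fewer cells that express a gene and less of its RNA per cell cannot be told apart.

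**Figure D2:**
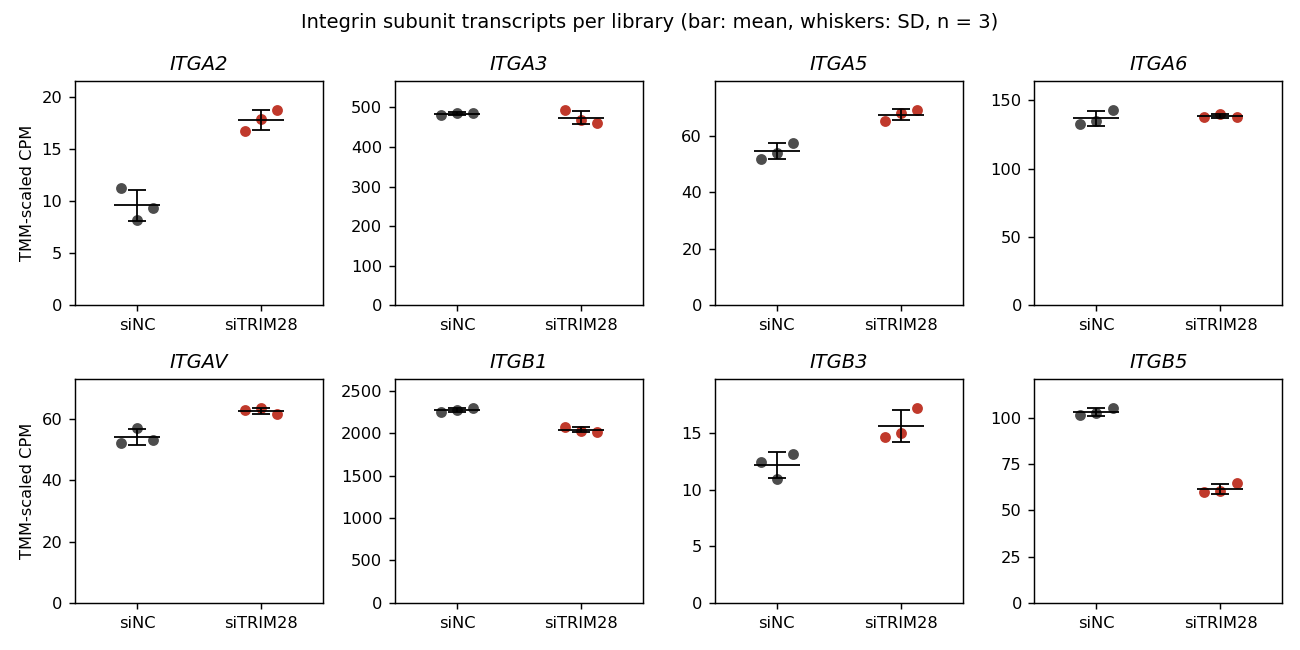
TMM-scaled CPM of the 8 tested integrin subunit genes, on axes that start at 0, with a point per library, a bar at the mean and whiskers of 1 SD (n = 3). The red siTRIM28 points lie above the grey siNC points for ITGA2, ITGA5, ITGAV and ITGB3, below them for ITGB1 and ITGB5, and among them for ITGA3 and ITGA6.

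ITGA2 (ENSG00000164171, chr5:52989340-53094779, plus strand), the alpha chain of a collagen and laminin receptor, rises the most of the 8 tested subunits. It has 11.2, 8.23 and 9.33 CPM in siNC and 16.8, 17.9 and 18.8 CPM in siTRIM28. The lowest siTRIM28 library lies well above the highest siNC library. The rise is 1.85-fold, a log2 fold change of 0.89 ± 0.106 (SE; adjusted p = 4.21e-05), and 915th from the top among the genes tested.

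ITGA5 (ENSG00000161638, chr12:54395261-54419127, minus strand) pairs only with ITGB1 and makes the classical fibronectin receptor. Its values are 52.0, 54.0 and 57.7 CPM in siNC and 65.4, 68.3 and 69.2 CPM in siTRIM28, again without overlap. The log2 fold change is 0.31 ± 0.058 (SE; adjusted p = 0.00118), a rise of 23.9%. Transcripts of fibronectin, FN1, stand at 5.45 CPM in siNC and 6.84 CPM in siTRIM28 and do not pass the test (adjusted p = 0.113).

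ITGAV (ENSG00000138448, chr2:186590010-186680894, plus strand) has 52.1, 56.9 and 53.2 CPM in siNC and 62.8, 63.6 and 61.7 CPM in siTRIM28. All siTRIM28 libraries lie above siNC, by 15.9% on average (log2 fold change 0.21 ± 0.056 SE; adjusted p = 0.00951). The call is lost without siNC replicate 1, where the log2 fold change is 0.18 (adjusted p = 0.0641).

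ITGB3 (ENSG00000259207, chr17:47253827-47313743, plus strand), the beta chain that ITGAV shares with the platelet fibrinogen receptor, has 12.5, 10.9 and 13.2 CPM in siNC and 14.6, 15.0 and 17.2 CPM in siTRIM28. The gap between the groups is narrow (log2 fold change 0.36 ± 0.0952 SE; adjusted p = 0.00992). Without siNC replicate 2 the adjusted p is 0.0572, and without siTRIM28 replicate 3 it is 0.0523. ITGB3 is also uncertain as a gene, because ENSG00000259753 covers it on the same strand and has 47.0% as many counts as ITGB3 itself, so reads could be divided between them. That neighbour has a log2 fold change of 0.14 ± 0.153 (SE; adjusted p = 0.488).

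ITGB1 (ENSG00000150093, chr10:32887273-33005792, minus strand) falls slightly and evenly. It has 2251, 2278 and 2298 CPM in siNC and 2074, 2032 and 2018 CPM in siTRIM28. The mean level fell by 10.3% (log2 fold change −0.16 ± 0.0312 SE; adjusted p = 0.00174). The opposite-strand transcript ITGB1-DT rises at the same locus (log2 fold change 1.20 ± 0.104 SE; adjusted p = 3.39e-06), but it has only 0.522% as many counts as ITGB1. ITGB1-DT was named after its values were seen.

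ITGB5 (ENSG00000082781, chr3:124761948-124901418, minus strand), the beta chain of a vitronectin receptor with ITGAV, falls the most of the 8 tested subunits. Its values are 101.3, 102.3 and 105.2 CPM in siNC and 59.99, 60.1 and 64.5 CPM in siTRIM28. The groups are far apart next to their spread (SD 2.03 and 2.58 CPM). ITGB5 fell by 40.2%, a log2 fold change of −0.74 ± 0.0509 (SE; adjusted p = 5.53e-07), and 972nd from the bottom among the genes tested.

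The laminin receptor chains ITGA3 and ITGA6 do not pass the test. ITGA3 (ENSG00000005884, chr17:50055968-50090481, plus strand) has 481.2, 486.3 and 486.3 CPM in siNC and 492.9, 469.3 and 461.0 CPM in siTRIM28 (log2 fold change −0.03 ± 0.0382 SE; adjusted p = 0.557). ITGA6 (ENSG00000091409, chr2:172234216-172506459, plus strand) has 132.7, 135.1 and 142.8 CPM in siNC and 137.6, 140.4 and 138.0 CPM in siTRIM28 (log2 fold change 0.02 ± 0.0443 SE; adjusted p = 0.762). The groups overlap for both. Their standard errors are among the smallest of the 8. ITGA6 is overlapped on the opposite strand by ITGA6-AS1, which has 16.6% as many counts, and the sources do not state whether counting used strand.

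**Figure D3:**
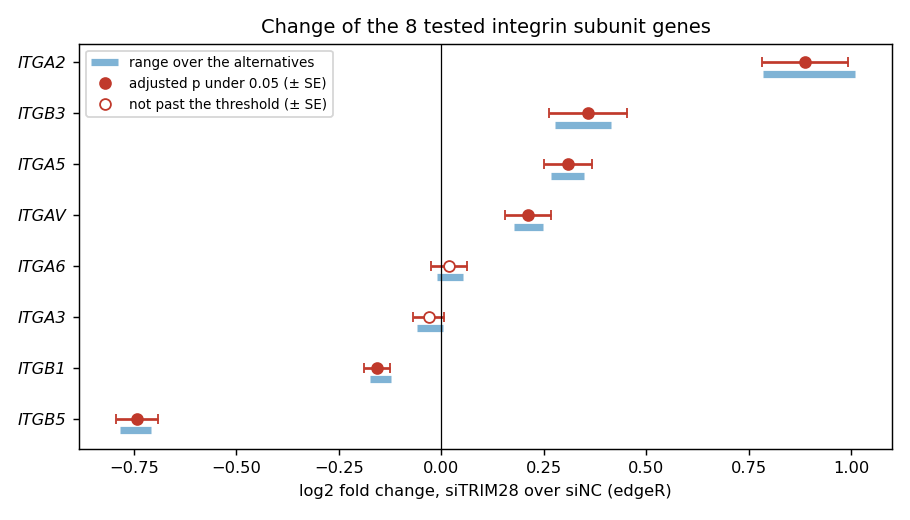
Log2 fold change of siTRIM28 over siNC for the 8 tested integrin subunit genes, with whiskers of 1 SE, filled points where the adjusted p is under 0.05, and a blue bar for the range over the alternative settings and left-out libraries. Only the bars of ITGA3 and ITGA6 cross 0.

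Partner chains change by unequal amounts. The log2 ratio of alpha to beta RPKM was taken in each library for 7 known heterodimers, and the pairs with ITGB4 and ITGB6 have too few counts for a ratio. ITGA2 to ITGB1 has log2 ratios of −6.48, −6.94 and −6.77 in siNC and −5.79, −5.67 and −5.59 in siTRIM28, a difference of 1.05. ITGAV to ITGB5 has log2 ratios of −2.53, −2.41 and −2.55 in siNC and −1.50, −1.49 and −1.63 in siTRIM28, a difference of 0.95. The RPKM of ITGAV is 0.177 of that of ITGB5 in siNC and 0.344 of it in siTRIM28. These fractions depend on the gene lengths in the file, while the log2 difference between the groups does not. Per kilobase of the longest coding transcript, ITGAV and ITGB5 have means of 7.695 and 23.55 CPM in siNC. In siTRIM28 they have 8.919 and 14.08 CPM.

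The ratio to ITGB1 also differs by 0.47 for ITGA5, 0.37 for ITGAV, 0.18 for ITGA6 and 0.13 for ITGA3, all log2 differences and all without overlap between groups. ITGAV to ITGB3 moves by −0.14, with overlapping libraries (exact permutation p = 0.6). Each of the other 6 ratios reaches an exact permutation p of 0.1, the smallest possible here, and 0.117 after adjustment over the 7, so none passes 0.05. All 5 alpha chains thus stand higher relative to ITGB1 in every siTRIM28 library than in any siNC library. These ratios share ITGB1 or ITGAV and are not independent of each other.

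**Figure D4:**
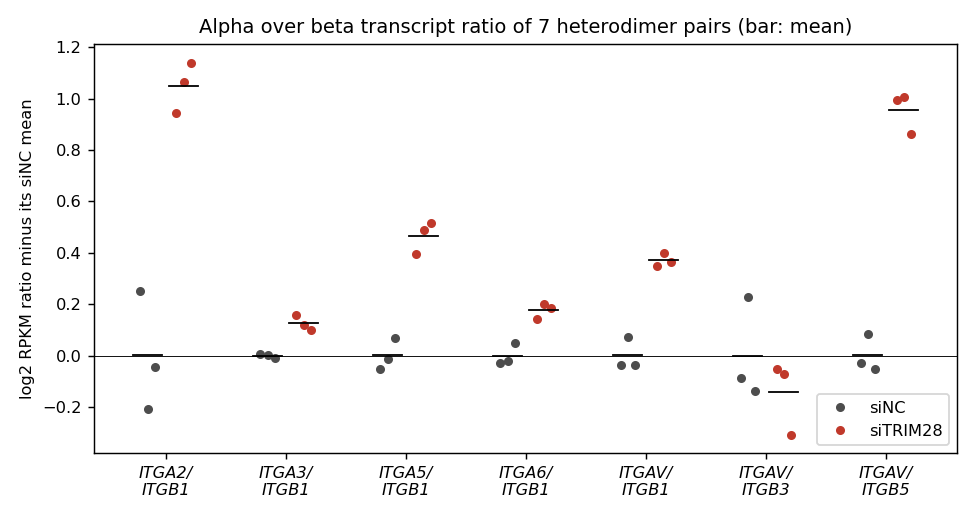
Log2 ratio of alpha to beta RPKM for 7 heterodimers, each with its siNC mean set to 0, with a point per library and a bar at the group mean. The siTRIM28 points lie near 1 for ITGA2 to ITGB1 and ITGAV to ITGB5, and among the siNC points for ITGAV to ITGB3.

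Certain 3′ UTR letters go with lower values over the whole table. siRNAs can lower other transcripts by pairing of their seed with sites in 3′ UTRs, so the longest 3′ UTR of 12119 tested genes (GENCODE v29, GRCh38, TRIM28 left out, sense strand only) was searched for all heptamers. Each heptamer got a z score for how far the log2 fold changes of its genes lie below those of other genes. Trends with GC content and UTR length were removed first. The score also depends on how many genes hold the heptamer, so its order is not that of the shift alone. By this score, CCTGTCA is the 1st and TCCTGTC the 2nd of 14368 heptamers. They share 6 letters and overlap in TCCTGTCA. The 1734 genes with CCTGTCA have a median log2 fold change of −0.19 and the 2181 genes with TCCTGTC one of −0.16, against 0.0036 and 0.0049 for the genes without the respective heptamer. At least 1 of them occurs in 25.0% of all genes with a UTR, in 39.6% of the lower ones and in 16.9% of the higher ones. The ranking uses the same contrast as the fold changes, and the shares are not corrected for UTR length, so these shares are a description.

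Among the 10 integrin genes, 3 hold such a heptamer, and they do not move together. ITGB5, the largest fall, holds 1 of each, while ITGA5 and ITGB3, which rise, hold 1 TCCTGTC each. ITGB1, which falls, holds neither. The sites are shown with the heptamer in capitals, 5′ to 3′ along the transcript, because they mark the members for which this letter pattern and the change can be read side by side. The site in the 3′ UTR of TRIM28 itself, where both heptamers overlap, is given for comparison. The study lists more than 1 siRNA against TRIM28, and by its listed letters, which were read from a page image, the seed of one of them (bases 2 to 8 of the guide) pairs with TCCTGTC in this TRIM28 site. Bases 1 to 7 of the same guide pair with CCTGTCA. Which of the siRNAs these libraries received is not given in the sources used here.
ITGB5, chr3:124762145-124762174, minus strand: atagtgaaatgCCTGTCActacatagaacc
ITGB5, chr3:124763030-124763059, minus strand: tcagtttcctcTCCTGTCcgtgtttgttta
ITGA5, chr12:54395908-54395937, minus strand: ccacaaggactTCCTGTCcagctccaacct
ITGB3, chr17:47311168-47311197, plus strand: tgcttccggccTCCTGTCcctcatccatag
TRIM28, chr19:58550587-58550616, plus strand: ctgttctctgTCCTGTCAccccatccccac
The part of these sites in the changes of ITGB5, ITGA5 and ITGB3 was not tested.

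The 16 other integrin subunit genes are low in T24, and 6 of them pass the count minimum, with 3 higher and 0 lower (21.3% and 20.5% of all genes tested). ITGA4 (8.17 CPM ± 0.776 in siNC, 12.1 CPM ± 1.16 in siTRIM28; log2 fold change 0.56, adjusted p = 0.00148) and ITGB2 (4.86 CPM ± 0.496 and 7.17 CPM ± 0.154; log2 fold change 0.56, adjusted p = 0.00503), both best known from leukocytes, are higher. ITGAX, named after its values were seen, is higher too (log2 fold change 0.96, adjusted p = 0.0122), but not without siTRIM28 replicate 2 (adjusted p = 0.0543). The leukocyte markers PTPRC, CD3E and CD14 stay at or near 0 in both groups. ITGAE, ITGA10 and ITGA11 do not pass the test. ITGAM, named after its values were seen, lies the other way but stays under the count minimum. It has 15, 11 and 9 counts in siNC and 2, 6 and 3 in siTRIM28. Without a count filter, 3 of the 16 are called higher and 1 lower, where 4087 of all 46060 genes then tested are higher and 3931 lower.

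**Figure D5:**
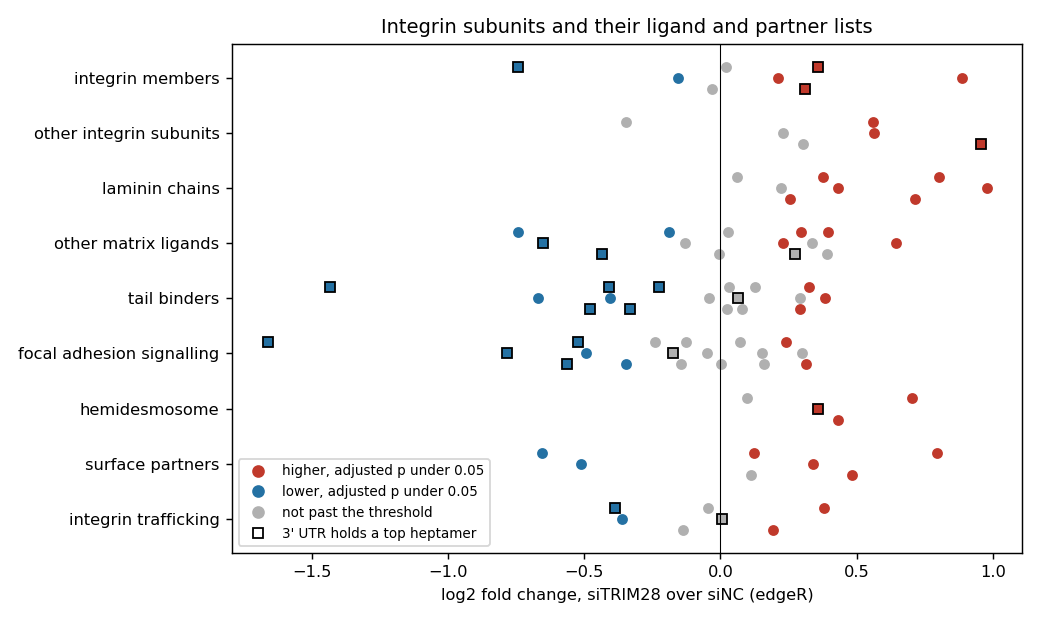
Log2 fold change of siTRIM28 over siNC for the tested genes of 9 lists of integrin subunits, ligands and partners, with a point per gene coloured by call and a black-edged square where the 3′ UTR holds CCTGTCA or TCCTGTC. The laminin and hemidesmosome lists have no lower call, and the largest falls are PARVA at −1.66 and FERMT1 at −1.43, both squares.

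Among the ligands, 6 of the 8 tested laminin chains are higher and 0 are lower (median log2 fold change 0.40), where 21.3% of all genes tested are higher and 20.5% lower. LAMB3 has 56.7, 56.5 and 57.2 CPM in siNC and 105.1, 101.3 and 90.4 CPM in siTRIM28 (log2 fold change 0.80, adjusted p = 1.22e-06). LAMA5 rises from 41.8 CPM ± 0.787 to 56.4 CPM ± 5.77 (log2 fold change 0.43, adjusted p = 0.000737). LAMA3, an alpha chain of epithelial laminin named after its values were seen, is also higher at 0.71 on the log2 scale (adjusted p = 0.0423), but lies at or under 2.15 CPM on average. The LAMA3 call is lost when any of the 6 libraries is left out (adjusted p 0.0513 to 0.142). The summed level of the 11 laminin chains is 591.4 to 593.9 CPM in siNC and 730.3 to 780.7 CPM in siTRIM28.

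Genes of the receptors and anchors for these laminins are split. Of the 4 hemidesmosome genes, 3 are higher (21.3% of all genes tested). COL17A1 (log2 fold change 0.70, adjusted p = 1.25e-05), DST (0.43, adjusted p = 5.68e-06) and PLEC (0.36, adjusted p = 1.46e-05) are higher and CD151 does not pass, whereas ITGA6 does not pass either and ITGB4 stays near 0. COL17A1 encodes a transmembrane collagen, and DST and PLEC encode plakins that can bind keratin.

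Of the 14 other matrix ligands tested, 4 are higher and 4 lower, not far from the 21.3% and 20.5% of all genes tested. EDIL3, an RGD ligand of ITGAV heterodimers, falls from 31.0, 30.5 and 32.2 CPM to 15.9, 19.4 and 20.9 CPM (log2 fold change −0.74, adjusted p = 5.17e-05). MFGE8, a related RGD ligand of ITGAV with ITGB3 or ITGB5, goes the other way, from 16.3 CPM ± 0.743 to 21.5 CPM ± 1.67 (log2 fold change 0.40, adjusted p = 0.00154). The matricellular gene CCN2 falls (log2 fold change −0.43, adjusted p = 0.000457), and LTBP1, which binds latent TGF-beta, rises (0.30, adjusted p = 0.00448). Of the remaining calls, those of NID2 (higher) and TNC (lower), named after their values were seen, are the least firm. NID2 loses its call without siNC replicate 1 or 2 or siTRIM28 replicate 1 or 3 (adjusted p 0.0772 to 0.124), and TNC without siNC replicate 2 (adjusted p = 0.0506). Vitronectin and osteopontin, VTN and SPP1, are near 0 in both groups.

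Adaptors on and behind the beta tail include the largest falls of these lists, and the kindlins among them go in opposite directions. Of 17 tested tail binders, 3 are higher and 7 lower, and of 18 tested focal adhesion signalling genes, 2 are higher and 6 lower, against 21.3% higher and 20.5% lower over all genes tested. FERMT1, a kindlin that activates integrins, falls from 21.1, 19.3 and 23.2 CPM to 6.86, 8.11 and 8.70 CPM (log2 fold change −1.43, adjusted p = 8.31e-07). Its relative FERMT2, which is more abundant, rises from 108.2 CPM ± 2.66 to 141.2 CPM ± 2.63 (log2 fold change 0.38, adjusted p = 2.88e-05). The actin crosslinker FLNA falls (−0.48, adjusted p = 2.54e-06). The talins TLN1 and TLN2 do not pass the test, although both do without siTRIM28 replicate 1 (adjusted p = 0.00108 and 0.0371). That run leaves only the close pair of siTRIM28 libraries, so its p-values may be too small.

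ILK and PARVA, which bind each other at focal adhesions, are both lower. ILK has 125.3, 120.1 and 124.3 CPM in siNC and 71.1, 68.7 and 75.1 CPM in siTRIM28 (log2 fold change −0.78, adjusted p = 3.10e-07). PARVA has 11.3, 10.8 and 12.8 CPM in siNC and 3.57, 4.05 and 3.38 CPM in siTRIM28 (log2 fold change −1.66, adjusted p = 1.55e-06). The kinase PTK2, which encodes FAK, rises slightly (0.24, adjusted p = 0.000333), as does its adaptor BCAR1 (0.31, adjusted p = 0.0153), whose call is lost when either siNC replicate 1 or 2 or siTRIM28 replicate 2 or 3 is left out (adjusted p 0.0526 to 0.0847).

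The heptamers are more frequent among the partners that fall. Over the 81 tested genes of the ligand, partner and other-subunit lists, 12 of the 21 lower genes (57.1%) hold at least 1 of them, against 2 of the 27 higher genes (7.41%) and 4 of the 33 not called (12.1%). For comparison, at least 1 is held by 39.6% of the lower genes of the whole table, 16.9% of the higher and 20.9% of those not called. These shares are not corrected for 3′ UTR length, which differs widely (7431 bases for PARVA, 263 for ILK). The heptamers were also picked from these same fold changes, so the shares are a description. FERMT1, PARVA and ILK, whose sites were chosen for printing after their values were seen, have these stretches, again with the heptamer in capitals.
FERMT1, chr20:6076688-6076717, minus strand: ctgcttttagcTCCTGTCttttcaaaatgg
PARVA, chr11:12534768-12534797, plus strand: ttcctggaaacCCTGTCAaaggccttaccg
PARVA, chr11:12527999-12528028, plus strand: accctgcttatTCCTGTCtcttgcactgtg
ILK, chr11:6610832-6610861, plus strand: gatcagccccgCCTGTCAcaataaagttta
EDIL3, in contrast, falls without holding either. The part of these sites in the falls was not tested.

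At the surface and inside the cell, integrin partners also go in both directions. Among 7 surface partners, 4 are higher and 2 lower, against 21.3% and 20.5% of all genes tested, and 3 to 5 are higher over the alternative settings. The tetraspanin CD82 rises from 23.8, 22.3 and 19.3 CPM to 42.2, 35.4 and 35.7 CPM (log2 fold change 0.79, adjusted p = 3.63e-05), and the tetraspanin CD81 falls from 37.1, 33.7 and 35.6 CPM to 18.8, 23.9 and 25.2 CPM (−0.65, adjusted p = 0.000227). SLC3A2, an amino acid transporter chain that binds beta tails, is higher (0.48, adjusted p = 0.0103), with 72.1 CPM in siTRIM28 replicate 1 against 47.7 and 49.7 CPM in the other two. Without that library, which leaves only the close pair in siTRIM28, its log2 fold change is 0.26 (adjusted p = 0.00149). The call of CD9 (adjusted p = 0.0468), named after its values were seen, is lost when any library but siTRIM28 replicate 1 is left out (adjusted p 0.0717 to 0.218). BSG is lower (−0.51, adjusted p = 5.41e-06).

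Of 7 tested genes of integrin endocytosis and recycling, 2 are higher and 2 lower, which is near the shares of 21.3% and 20.5% over all genes tested. RAB5A of early endosomes rises (log2 fold change 0.38, adjusted p = 0.000133), as does ARF6 (0.19, adjusted p = 0.00684). The recycling GTPases RAB11A (−0.39, adjusted p = 5.76e-05) and RAB4A (−0.36, adjusted p = 0.0023) fall. The ARF6 call is lost when the close replicates are summed (adjusted p = 0.0513).

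The profile of a single subunit over 6 libraries is shared by many genes. By Pearson correlation of log2 CPM over the 6 libraries, among 11339 genes with a mean of at least 50 counts, ERCC5 (r = 0.999), MAP4K2 (0.995) and PTPDC1 (0.995) are most like ITGA2, and 564 genes exceed 0.95. UNG, DENND2A and C8orf33 (r from 0.9993 to 0.9995) are most like ITGB5, and 1560 genes exceed 0.95. These correlations share the libraries and the contrast between the groups and are given as a description only.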

How the data were processed

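Poly(A) RNA of T24 cells was sequenced in 3 siNC and 3 siTRIM28 libraries, grouped by their labels. The submitters' processing notes name fastp 0.23.1, STAR 2.7.6a, featureCounts and GRCh38. The authors deposited raw read counts per gene without normalization, with the annotation release and the strand setting not given in the sources used here. A deposited table of differentially expressed genes, which holds the authors' own selection, was not used.

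The members and gene lists were chosen with earlier results of these data known. edgeR 4.0.16 (R 4.3.3) was run with TMM factors and the quasi-likelihood test, with condition as its term and a Benjamini-Hochberg threshold of 0.05, on the 18474 genes that reach 10 counts in 3 or more libraries. The SE is the log2 fold change over the square root of F. On simulated counts of 17915 genes, 57 of 100 changes of 0.4 and 99 of 100 of 0.8 on the log2 scale were recovered, with 7 unchanged genes called. The simulation used independent libraries, the same dispersion for all genes, and changes placed outside the low genes. It therefore does not give the rate of false calls for these libraries with their close pairs, nor the recovery for low genes. Single genes and subunit ratios were compared on log2 CPM (prior count 2) with a two-sided exact permutation test. Adjustment over 9 ratios had been planned, and 7 could be computed. Heptamers held by at least 200 genes were ranked by z score in 3′ UTRs of at least 30 bases. The z score used log2 fold changes from which cubic terms of GC content and of UTR length had been removed.

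All 10 members were named. From each list, up to 2 rises and 2 falls, the largest with an adjusted p under 0.05 and a mean of at least 50 counts, were named, with TRIM28 and the 3 genes most like the member with the largest rise and the largest fall. Genes given by value outside this rule (list members that did not pass, FN1, PLEC, markers, overlapping genes) were named after their values were seen. A few listed genes enter the counts without being named here. Alternatives were scaling by total counts, RLE or upper quartiles, DESeq2 1.42.0, limma-voom (limma 3.58.1), other count filters, a replicate block, leaving out each library, summing close replicates, and stricter thresholds. Figures were made with matplotlib 3.10.9.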

Additional observations from a re-analysis of the deposited data

How the results depend on the processing

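The number of integrin genes called is 6 under every scaling, tool and count filter tried, with the replicate number as a block, with close replicates summed and at an adjusted p under 0.01. It is 5 to 6 when 1 library is left out, while the genes called in all number 6344 to 8130. DESeq2 calls 5878 genes and the sum of close replicates 5935, against 7723. Where a log2 fold change of 0.58 or more in size is also required, 2 integrin genes (ITGA2 and ITGB5) and 3144 genes in all are called. The sign turns for ITGA3 with upper-quartile factors (0.0034) and for ITGA6 without siNC replicate 1 (−0.011, in a range up to 0.049 with 1 library left out), both far from a call. ITGB4 and ITGB6 gave no value except without a count filter, and ratios with them were not run. Same-numbered replicates show little shared deviation (r = 0.0523, −0.0118 and 0.0374), and all pairs across the groups lie from −0.0655 to 0.0523. With so few libraries, some of them close, this check cannot tell whether the numbers pair the libraries. The replicate block calls 7910 genes and changes no call among the members. siNC replicate 1 correlates best with its own number, and siNC replicates 2 and 3 do not. The lists were run over the same settings, without the stricter thresholds, after the data were seen. Laminin chains called higher number 4 to 6 and those called lower 0. Tail binders number 3 to 5 higher and 5 to 7 lower, and focal adhesion genes 1 to 4 higher and 6 to 8 lower. Epithelial markers number 1 to 4 higher and 0 lower. With the main setting, 8, 17, 18 and 5 genes of these lists are tested. Of all genes, 2884 to 4420 are called higher and 2968 to 4180 lower, with 16542 to 46060 tested. Depth limits ITGB4 and ITGB6, which stay at or under 3 counts.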
